A study of Sus scrofa with 20 samples.

Results

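Chemokines, interleukins and members of the tumour necrosis factor (TNF) family were read from the backfat transcriptome of pigs. The set took every locus of the deposited count table whose Ensembl identifier led to a single pig symbol beginning with CCL, CXCL, CCR, CXCR, IL and a digit, or TNF. It held 66 of 23483 loci, which carried 59 gene symbols. These were 6 loci of CC chemokine ligands, 4 of CXC ligands, 7 of chemokine receptors, 12 of interleukins, 22 of interleukin receptors and binding proteins, 4 of TNF ligands, 7 of TNF receptors and 4 of genes that share only the prefix. A further 4 loci that joined such a gene to a neighbour (IL11RA, TNFSF13B, CCR10 and IL17B) were left out, and 80 other pig symbols with these prefixes, TNF, CXCL12, CXCR4 and IL6R among them, had no locus in the set and were not analysed here.

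The study sequenced polyadenylated RNA of backfat, a subcutaneous fat depot, from Italian Large White pigs of 150-160 kg that shared housing and diet. There were 10 females and 10 castrated males, with 1 library per animal. At slaughter the females were 244.3 ± 5.64 days old, and the castrated males were 240.4 ± 4.53 days old (mean ± SD of 10 animals each). Whole males were not among the samples, so an effect of sex and an effect of castration cannot be told apart.

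Chemokines are small secreted proteins that draw leukocytes along a gradient by way of G protein-coupled receptors, and CC and CXC name the spacing of their first conserved cysteines. Interleukins signal between leukocytes and stromal cells, mostly through receptor pairs that activate Janus kinases or, in the IL-1 and IL-17 groups, the NF-κB pathway. TNF ligands act as trimers on receptors that recruit TRAF adaptors or death domain proteins, and in adipose tissue these families are best known from macrophages that gather as fat expands.

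The libraries held 25754778 to 51248122 counts in total (median 36922247). A count of 3, taken as the limit of detection, stood for 0.116 CPM (counts scaled to a common library size) in the shallowest library and 0.0585 CPM in the deepest, which covers counting error only. The labels of 2 libraries went against a pair of sex-specific loci. The library labelled female 10 held 0.408 CPM of XLOC_042132 where the other females held 546.8 to 1232 CPM, and the library labelled castrated male 10 held 988.3 CPM where the other castrated males held 0 to 1.87 CPM. XLOC_042813 showed the reverse, with 313.4 CPM in the library labelled female 10 and 0 in the library labelled castrated male 10. Both libraries kept their labelled sex and age, and their ages are therefore uncertain too. Counts over the set are also given without them, and differences of single genes where stated. Of the marker genes of fat cells, 7 of 11 had a locus (PPARG, LIPE, PLIN4, CIDEC, PNPLA2, SCD and FASN), and their summed level was 7122 to 36210 CPM in females, against 3857 to 35410 CPM in castrated males. Castrated male 1 held the lowest sum of fat cell markers, the next library standing at 7122 CPM, the lowest sum of fibroblast markers (6570 CPM, next 13790 CPM), and the highest sums of macrophage markers and of endothelial markers (2290 CPM).

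Levels of different genes are compared in FPKM, the deposited measure per length of transcript. By mean FPKM the most abundant loci were ligands that draw neutrophils, monocytes and T cells. CXCL2, a neutrophil attractant that acts on CXCR2, was highest of the 66 at 140.8 ± 104.7 FPKM in females and 162.5 ± 108.4 FPKM in castrated males (mean ± SD of 10 animals each). CCL2, the monocyte attractant and ligand of CCR2, followed at 102.3 ± 75.3 FPKM in females and 107.6 ± 47.6 FPKM in castrated males. CCL19, the ligand of CCR7 that leads dendritic cells and T cells to lymphoid tissue, reached 85.5 ± 20.2 FPKM in females and 97.5 ± 20.0 FPKM in castrated males at XLOC_003652. The mean of CXCL2 lay above every library's CCL19 in each sex, while the means of CCL2 and CCL19 lay within each other's SD. By median, CCL2 lay below this CCL19 locus in females (62.6 against 83.4 FPKM) and above it in castrated males (104.8 against 99.1 FPKM). CCL5, an attractant of T cells and monocytes, came lower at 30.5 ± 13.3 FPKM in females and 44.7 ± 19.1 FPKM in castrated males. CXCL14, a chemokine expressed in epithelia and fat without inflammation, stood at 11.5 ± 4.91 FPKM in females and 12.5 ± 5.94 FPKM in castrated males, and CCL25, a ligand of CCR9, at 5.31 ± 0.942 FPKM in females and 5.17 ± 1.33 FPKM in castrated males. The remaining ligands were low: CCL3L1, which in humans binds CCR1, averaged 2.78 FPKM over all 20 libraries, CXCL11, an interferon-induced ligand of CXCR3, 1.05 FPKM, and CXCL8, the neutrophil attractant also called interleukin 8, 0.696 FPKM.

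The chemokine receptor loci of the set were low beside its CC ligand loci. CXCR2, CCR2 and CCR9, named above as receptors of CXCL2, CCL2 and CCL25, had no locus in the set. Of chemokine receptors without the prefix, ACKR4 averaged 146.6 FPKM, ACKR3 70.0 FPKM, XCR1 7.39 FPKM and CX3CR1 1.63 FPKM. The 7 receptor loci of the set summed to 4.16, 8.86 and 18.5 FPKM in females (lowest, median and highest library) and 6.31, 12.2 and 46.2 FPKM in castrated males, while the 6 CC ligand loci summed to 149.7, 200.8 and 366.9 FPKM in females and 144.2, 244.5 and 364.6 FPKM in castrated males. CCR1, a receptor of macrophages and effector T cells, averaged 4.47 ± 4.79 FPKM over all libraries (SD, n = 20). CCR3, the eotaxin receptor of eosinophils, averaged 2.13 FPKM and CCRL2, which binds chemerin, 1.12 FPKM. CCR3 shares its locus with a second Ensembl identifier that has no symbol, so its level is uncertain. CCR7, CXCR6 and CXCR3, receptors of lymphocytes and dendritic cells, averaged 0.558, 0.503 and 0.432 FPKM. In the current pig assembly CXCR6, CCR1, CCR3 and CCRL2 are near neighbours, within a run of 7 protein-coding genes.

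Among interleukins, 4 loci averaged 10 FPKM or more, those of IL33, IL15 and IL17D. IL33, an alarmin kept in nuclei of stromal and endothelial cells, averaged 15.1 ± 4.02 FPKM in females and 15.6 ± 6.31 FPKM in castrated males, and IL15, which sustains natural killer cells and memory T cells, 14.2 ± 3.16 FPKM in females and 16.2 ± 5.19 FPKM in castrated males. IL17D, the IL-17 family member least tied to T cells, had 2 loci at 41.5 and 11.1 FPKM over all libraries, but there log2 CPM and log2 FPKM correlated at only 0.56 and 0.38 over the 20 libraries, against 0.86 for IL33 and 0.95 for IL15, so its level is uncertain. IL16, a chemoattractant for CD4+ cells, averaged 3.90 FPKM at its higher locus, IL18, which the inflammasome activates, 3.20 FPKM, and IL6, an acute-phase cytokine, 1.67 FPKM. IL1A, an alarmin of the IL-1 group, averaged 1.29 FPKM, IL10, which restrains macrophages, 1.10 FPKM, IL20, an IL-10 relative of skin, 0.502 FPKM, and IL7, the growth factor of lymphocytes, 0.323 FPKM.

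Receptors of interleukins and TNF were among the most abundant loci. IL1R1, the signalling receptor of IL-1, averaged 67.7 ± 18.4 FPKM in females and 80.9 ± 21.3 FPKM in castrated males. IL13RA1, which pairs with IL4R to bind IL-4 and IL-13, averaged 52.1 ± 7.09 FPKM in females and 61.5 ± 8.04 FPKM in castrated males. TNFRSF1A, the widely expressed TNF receptor with a death domain, averaged 69.0 ± 19.6 FPKM in females and 71.5 ± 11.9 FPKM in castrated males. TNFRSF1B, the TNF receptor of leukocytes and endothelium, averaged 44.6 ± 15.8 FPKM in females and 47.7 ± 14.1 FPKM in castrated males, and these levels did not separate the sexes. TNFRSF21, also called death receptor 6, averaged 32.8 FPKM over all libraries, TNFRSF12A, the receptor of TWEAK, 19.7 FPKM, IL1RAP, the accessory chain of IL1R1, 18.1 FPKM, and IL4R 20.8 FPKM at its higher locus. The 22 interleukin receptor loci ranged down to IL22RA2, a soluble protein that binds IL-22, at 0.175 FPKM. Of the TNF ligands only TNFSF9, the ligand of the T cell costimulator CD137, passed 10 FPKM, at 22.9 ± 12.5 FPKM in females and 29.2 ± 20.1 FPKM in castrated males. TNFSF18 (ligand of GITR), TNFSF4 (ligand of OX40) and TNFSF14 (LIGHT) averaged 1.45, 0.579 and 0.433 FPKM. Of the genes sharing only the prefix, TNFAIP1, an adaptor of a ubiquitin ligase, averaged 30.8 FPKM and TNFAIP3 (A20), which ends NF-κB signalling, 13.1 FPKM.

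**Figure D1:**
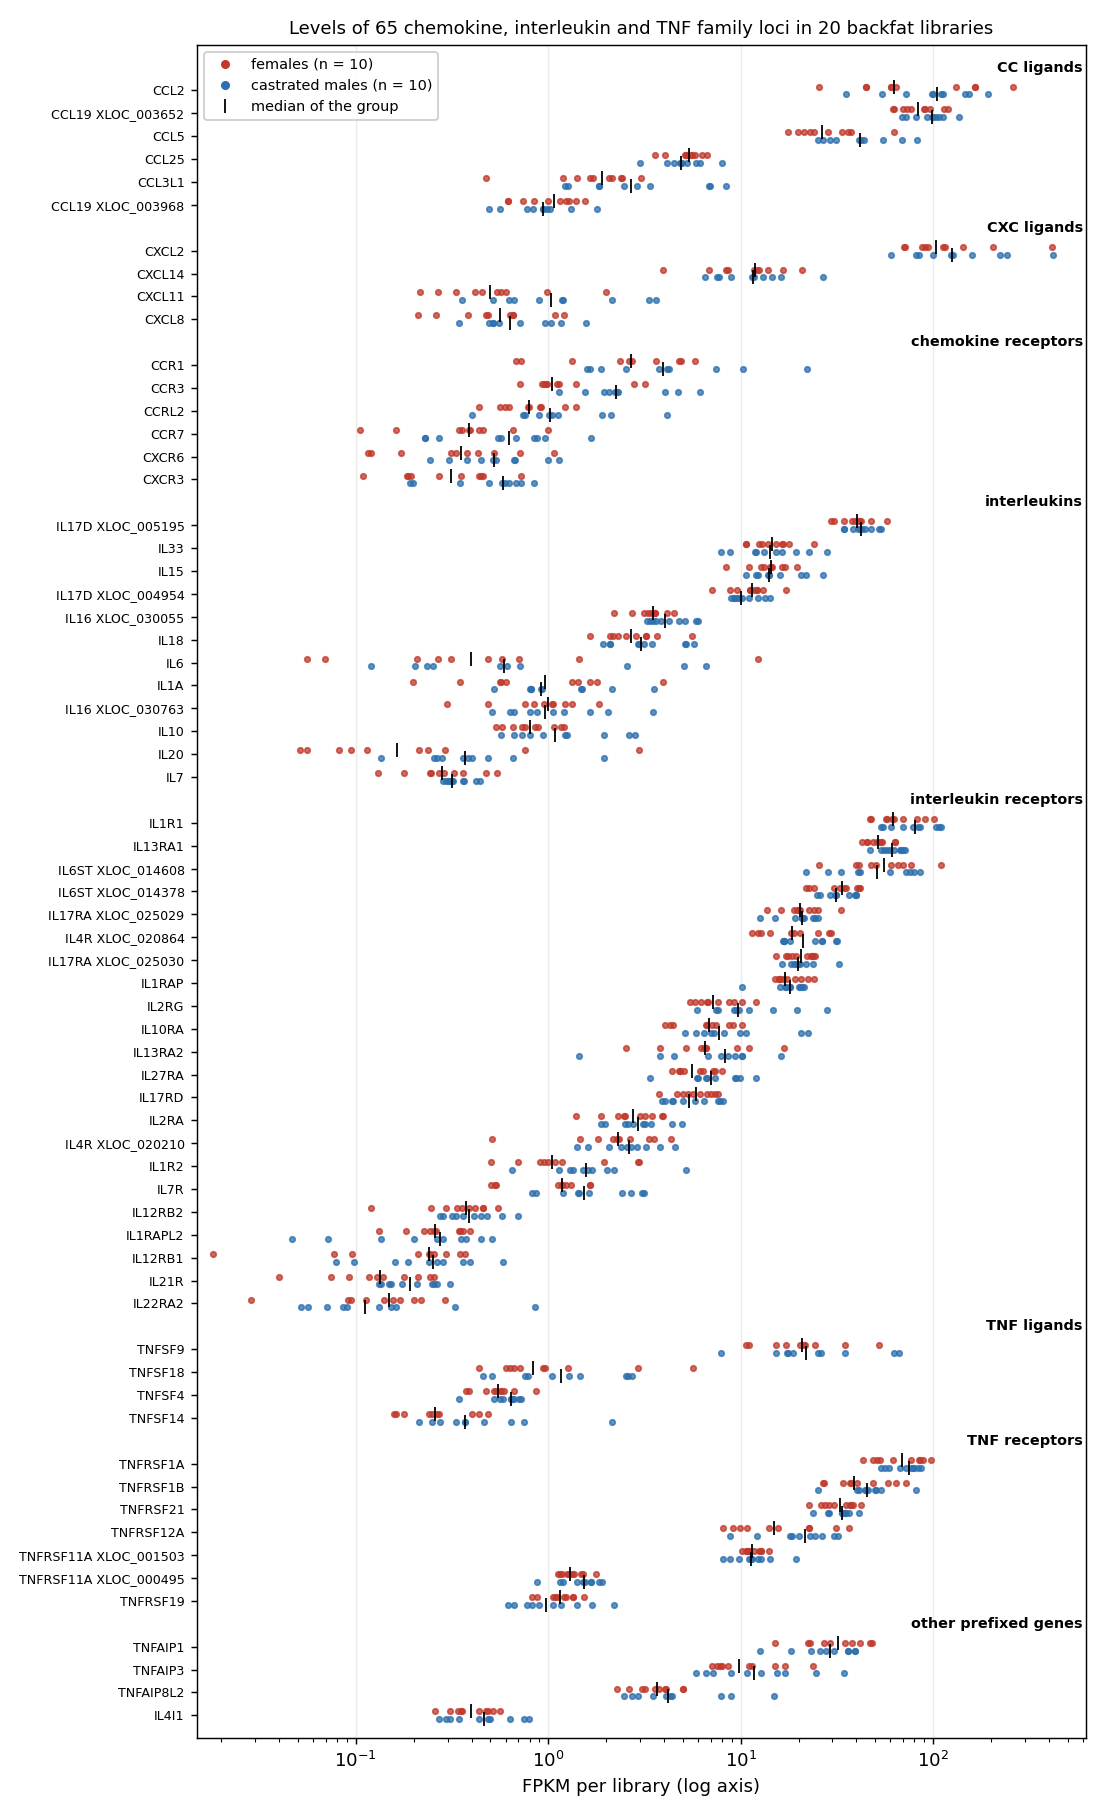
FPKM (log axis) of 65 of the 66 loci in each of 20 backfat libraries, grouped by role and ordered by mean within a role, with females (red, n = 10) above castrated males (blue, n = 10) in each row and a black tick at the median of each group. CXCL2, CCL2 and CCL19 lie near 100 FPKM, the chemokine receptors lie mostly under 10 FPKM, and the sexes overlap in every row.

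Counting bore on which loci could be tested. Of the 66 loci 64 passed the filter on low counts, and 2, IL6ST XLOC_014608 and TNFAIP8L2, had 0 counts in all 20 libraries while the deposited FPKM averaged 56.4 and 4.64. IL6ST encodes gp130, the signal chain of the IL-6 family, and its other locus, XLOC_014378, averaged 44.5 CPM and 32.7 FPKM. The symbols TNFRSF11A, CCL19, IL17D, IL6ST, IL4R, IL17RA and IL16 each sat on 2 loci, and how reads were shared between them is not given in the sources used here, so each locus is reported under its own identifier and its share of the gene is uncertain.

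The families varied between animals more than most transcripts. Over the 55 loci with a mean of at least 1 CPM, the median SD between animals of log2 CPM, after taking out sex means, was 0.523, against 0.351 over all 15787 loci of that level. The same order held at matched levels: 0.737 for 23 family loci against 0.486 for all loci at 1 to 10 CPM, 0.448 for 25 against 0.266 at 10 to 100 CPM, and 0.368 for 7 against 0.252 at 100 CPM or more. The least variable were IL17D, CCL25 and IL13RA1, with an SD of 0.23 or less for each. IL6 was the most variable at an SD of 1.91, above 99.4% of all loci. It stood at 0.0574, 0.493 and 13.5 CPM in females (lowest, median and highest) and at 0.126, 0.622 and 6.90 CPM in castrated males. Most animals held under 1 CPM of IL6, and 5 libraries, female 2, female 4 and castrated males 2, 3 and 4, held more. The lowest value rested on 2 counts. CCR1 (SD 1.18) stood at 2.07, 8.76 and 18.4 CPM in females, against 4.95, 12.5 and 69.4 CPM in castrated males. IL1A (SD 1.09) stood at 0.661, 3.06 and 11.2 CPM in females, against 1.31, 3.16 and 10.5 CPM in castrated males. CXCL11, TNFSF18 and IL16 XLOC_030763 followed with SDs of 0.96, 0.93 and 0.93, and the high value of the IL16 locus, 19.7 CPM, came from the library labelled castrated male 10.

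High values clustered in a few animals. Castrated male 1 was the highest library for 18 of the 55 loci (32.7%), against 12.6% of all loci of that level, and female 7 was the lowest library for 13 of the 55 (23.6%, against 12.9%). Among those for which castrated male 1 was highest were receptors of leukocytes, with CCR1 at 69.4 CPM (next 31.9), IL2RG at 43.3 CPM, IL10RA at 86.2 CPM and CCRL2 at 5.96 CPM. Female 2 was highest for 6 loci (10.9%, against 6.999% of all loci), and CCL2 at 193.6 CPM, CXCL2 at 492.3 CPM, IL6 at 13.5 CPM and IL1A at 11.2 CPM were all highest there, while its CCR1 was 18.4 CPM.

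These patterns were set against markers of immune cells in the same libraries. Macrophage markers were read from 7 of 13 listed genes (MSR1, C1QA, TYROBP, LYZ, MRC1, CD14 and FCER1G), which together stood at 92.1, 217.9 and 391.8 CPM in females, against 165.9, 256.9 and 1042 CPM in castrated males, and none of the 7 was at 0. Markers of T and natural killer (NK) cells, 12 of 17 listed genes, stood at 102.0, 115.3 and 170.6 CPM in females, against 111.5, 158.1 and 210.4 CPM in castrated males. Of 6 B and plasma cell markers only MS4A1 had a locus, at 1.05 CPM or less in every library. In bulk tissue, fewer cells of a type and less RNA per cell cannot be told apart.

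Of the 55 loci, 12 rose with the macrophage score, the mean z-score of those markers with sex means removed, and 1 fell (100000 permutations, two-sided, Benjamini-Hochberg over all 31554 relations of 15787 loci with both scores). That was 21.8% of the set, against 4.19% of all loci in the same direction, and 1.82% in the negative direction, against 2.18%. CCR1 followed the score most closely, with Pearson's r of 0.93 and Spearman's rho of 0.91 (permutation p = 1e-05 each, the smallest that the permutations can give, adjusted p = 0.00137), and r was 0.93 without the 2 libraries farthest from the median score, castrated males 1 and 6. It was followed by CCRL2 with r = 0.91 (rho 0.88), IL10RA, the ligand-binding chain of the IL-10 receptor, with r = 0.90 (rho 0.84), and IL2RG, the common gamma chain of receptors for IL-2, IL-7 and IL-15, with r = 0.90 (rho 0.85), each with permutation p = 1e-05 for r and for rho, an adjusted p of 0.00137, and r between 0.82 and 0.85 without those 2 libraries. IL10, IL18, IL7R, CCL3L1, CCR7, IL1R2 (the decoy receptor of IL-1) and CXCR6 also passed, at r of 0.68 to 0.86. The calls of CCL3L1, CCR7, CXCR6 and IL1R2 were lost without castrated male 1 (adjusted p of 0.0587, 0.0755, 0.0985 and 0.157 by permutation). Of the ligands that were highest in female 2, CCL2 reached r = 0.42 (permutation p = 0.0611, adjusted p = 0.303), IL1A 0.37, IL6 0.14 and CXCL2 -0.18, none past the threshold. Of other variable ligands, CXCL11 reached 0.26 and TNFSF18 0.48 (rho 0.72, adjusted p = 0.211 for r by permutation), and neither passed. CCL3L1, with an SD of 0.89, did pass, at r = 0.77. IL1RAP alone passed in the negative direction (r = -0.73), and without castrated male 1 its r was -0.56 with an adjusted p of 0.236 by permutation, and with sex means kept its adjusted p was 0.0521 by permutation. TNFRSF19, IL2RA, IL13RA2 and TNFSF4 had the next lowest r, between -0.61 and -0.23, and did not pass.

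The T and NK score was followed by fewer loci, 6 of 55 upward (10.9%, against 1.59% of all loci) and 0 downward (against 0.292%) by the same permutation test and adjustment. They included CCL5 at r = 0.75 (rho 0.78, permutation p = 0.0001 and 7e-05, adjusted p = 0.00693), IL10RA at 0.71, IL2RG at 0.71, CCRL2 at 0.68 and IL16 XLOC_030055 at 0.67. Without the 2 libraries farthest from the median score, female 1 and castrated male 1, r was 0.62 for CCL5. The calls of IL2RG, IL10RA, IL16 XLOC_030055 and CCRL2 were lost without castrated male 1 (adjusted p of 0.0614, 0.0679, 0.0679 and 0.103 by permutation). CCL5 kept its call (adjusted p = 0.0402 by permutation). The lowest r with the T and NK score were those of IL1RAP (-0.53), CXCL2 (-0.46), IL2RA (-0.41), CCL19 XLOC_003968 (-0.24) and TNFAIP1 (-0.24), none past the threshold. CCL5 and IL16 XLOC_030055 passed with this score and missed the threshold with the macrophage score, at r = 0.60 (adjusted p = 0.0821) and 0.45 (adjusted p = 0.261) by permutation. The other IL16 locus, XLOC_030763, passed with neither, at r = -0.09 with the T and NK score and -0.17 with the macrophage score. In FPKM CCL5 also passed with the macrophage score (adjusted p = 0.0445 by permutation), and IL16 XLOC_030055 missed the threshold with the T and NK score (adjusted p = 0.0768 by permutation). The difference between a locus's correlations with the 2 scores was not tested. Without castrated male 1 the loci that passed were 8 for the macrophage score and 2 for the T and NK score, in place of 13 and 6.

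**Figure D2:**
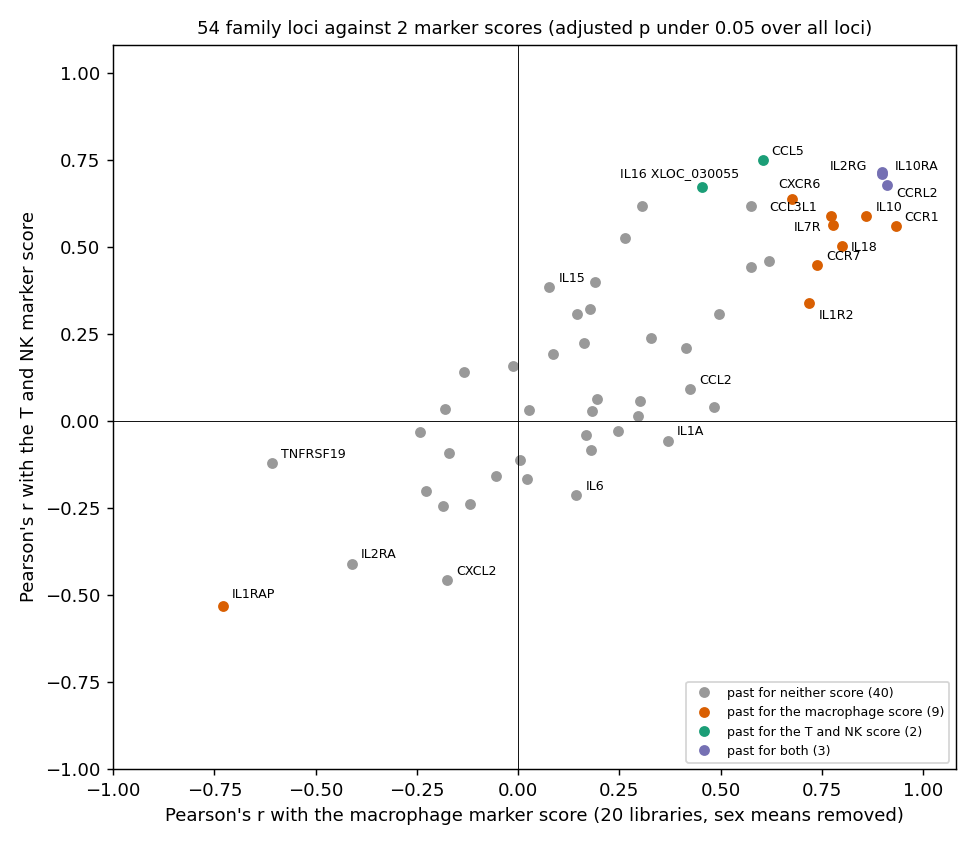
Pearson's r of each of 54 loci with the macrophage marker score (horizontal axis) and with the T and NK marker score (vertical axis) over 20 libraries, sex means removed. Colours mark adjusted p under 0.05 over all loci: CCR1, CCRL2, IL10RA and IL2RG lie at the far right, CCL5 and IL16 XLOC_030055 passed for the T and NK score only, and CCL2, IL1A, IL6 and CXCL2 lie nearer the centre.

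**Figure D3:**
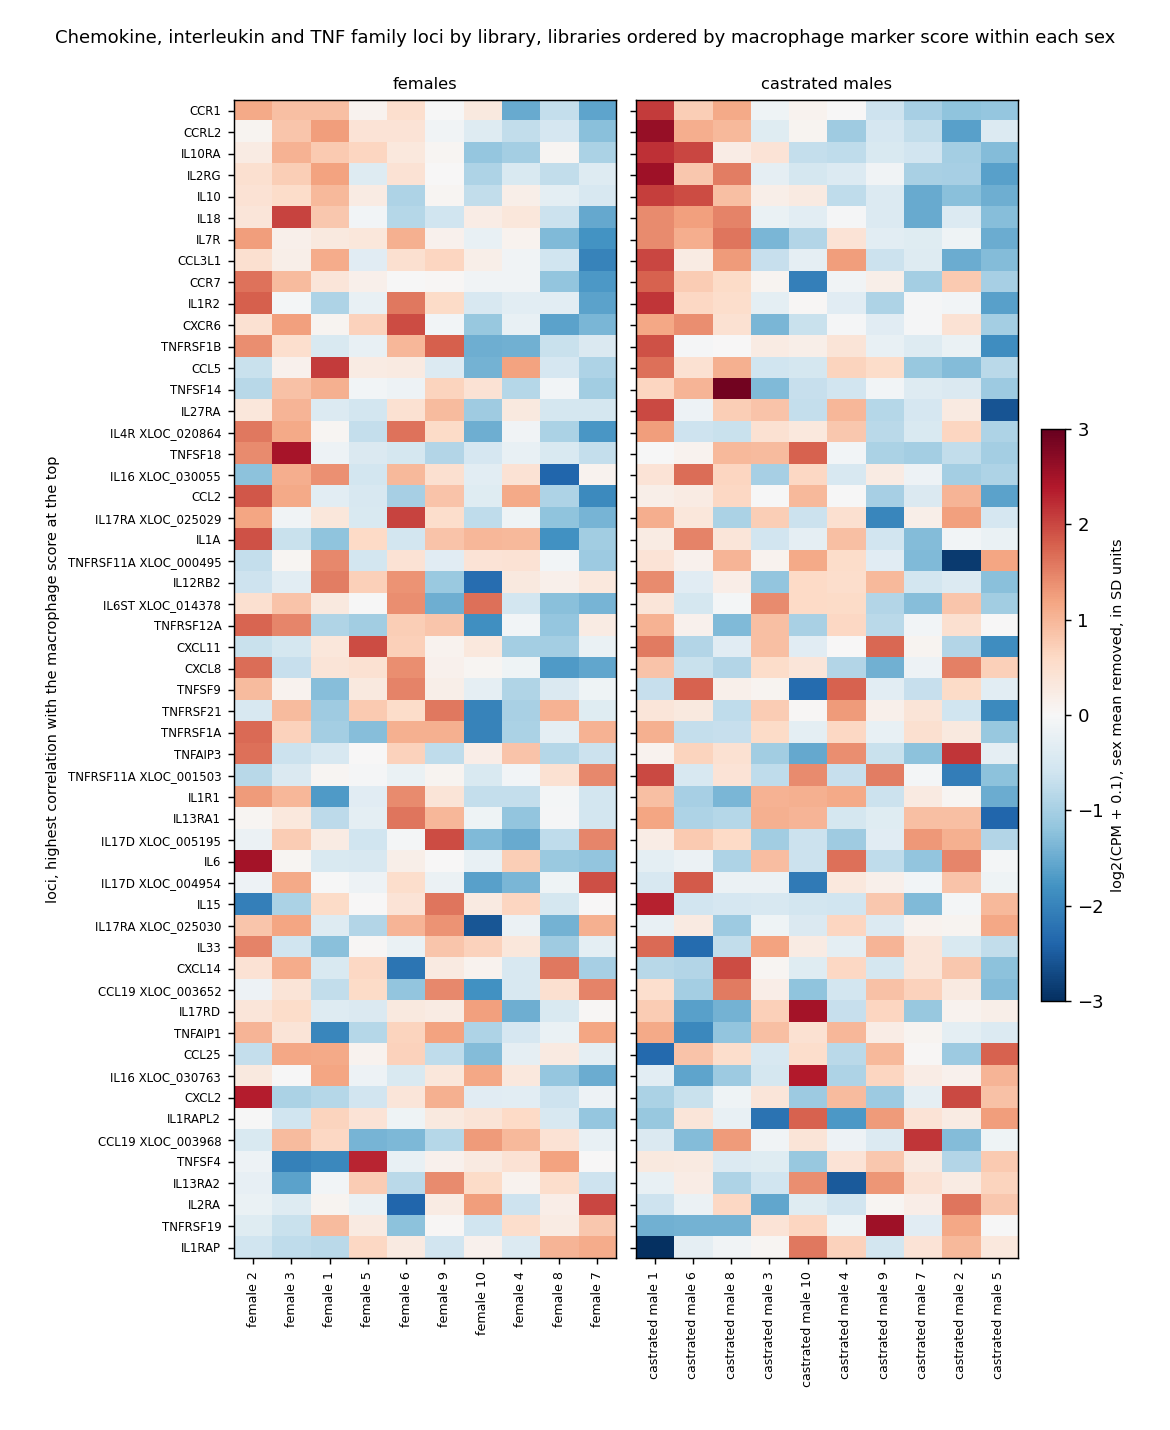
Deviation of each of 54 loci in each library from its sex mean, in SD of log2(CPM + 0.1), with libraries ordered by macrophage score within each sex and loci by their correlation with it. The top rows are red in castrated males 1, 6 and 8 and in females 2, 3 and 1, the rows of IL6 and CXCL2 are red in female 2 and castrated male 2, and IL6 is also red in castrated male 4.

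Ligands were then compared with their own receptors over the 20 libraries. Of 66 textbook pairs 12 had both partners in the set at 1 CPM or more, and 5 passed an adjusted p of 0.05 (100000 permutations, two-sided, Benjamini-Hochberg over the 12). IL10 and IL10RA moved together at r = 0.83 (rho 0.73, permutation p = 1e-05 and 0.0005, adjusted p = 0.00012), and r was 0.66 without castrated males 1 and 6, the libraries farthest from the median of IL10. CCL3L1 and CCR1 did so at r = 0.83 (rho 0.80, permutation p = 2e-05 and 5e-05, adjusted p = 0.00012), with 0.73 without female 7 and castrated male 1. All 4 genes of these 2 pairs were among those that rose with the macrophage score. IL17D XLOC_004954 and IL17RA XLOC_025030 reached r = 0.53 (permutation p = 0.0163, adjusted p = 0.0391) in CPM but 0.01 in FPKM. The other pairings of IL17D and IL17RA loci reached r = 0.46, 0.15 and 0.11 and did not pass. With castrated male 1 left out 3 pairs passed, and IL17D XLOC_004954 with IL17RA XLOC_025030 did not (adjusted p = 0.0612 by permutation). Without both libraries numbered 10 it did not pass either (r = 0.395, adjusted p = 0.21 by permutation). IL6 and IL6ST XLOC_014378 missed the threshold in CPM (r = 0.49, adjusted p = 0.0562 by permutation). That pair passed it in FPKM (r = 0.51, adjusted p = 0.048 by permutation) and without both libraries numbered 10 (r = 0.59, adjusted p = 0.023 by permutation). CCL19 and CCR7 (r = 0.08 and -0.27 at the 2 CCL19 loci) and IL1A and IL1R1 (r = 0.06) did not pass.

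Females and castrated males were compared to ask which cytokine genes depend on sex or castration. No family locus passed an adjusted p of 0.05 in edgeR's quasi-likelihood test, 0 of 64 against 0 of 21587 loci in all (0.0%), and DESeq2 and limma-trend on FPKM also called 0 of the set. At an unadjusted p under 0.05 there were 11 family loci (17.2%, against 4.33% of all loci), all of them lower in females (against 2.05% of all loci in that direction and 2.28% in the other). At any p 53 of 64 lay below 0 (82.8%, against 49.1% of all loci), and the median difference, females minus castrated males, was -0.20 on the log2 scale against 0.00 over all loci. The CPM ranges of the sexes overlapped for all 64 and for all 21587 loci, among them the sex-specific loci that go against the labels of the libraries numbered 10. Without both of those libraries, a comparison chosen after seeing the data, the ranges still overlapped for all 64, while those of 18 loci in all (0.0834%) did not.

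Chemokine receptors lay lowest, with all 7 below 0 and a median of -0.69. CCR1 averaged 9.34 ± 5.68 CPM in females, against 18.8 ± 19.8 CPM in castrated males (mean ± SD of 10 animals each), a log2 difference of -1.01 (SE 0.48, edgeR adjusted p = 1), and of -0.49 without castrated male 1. CCR3 stood at 0.144, 0.369 and 1.20 CPM in females, against 0.214, 0.875 and 2.30 CPM in castrated males, with a log2 difference of -1.02 (SE 0.40, edgeR adjusted p = 1). The ranges overlapped, and for CCR1 castrated males 1, 6 and 8 lay above every female. CCRL2 was at -0.76, CCR7 at -0.69, CXCR3 at -0.56 and CXCR6 at -0.46, none of them past an adjusted p of 0.05 in edgeR. CCRL2 was at -0.39 and CCR7 at -0.43 without castrated male 1. Of the receptors of interleukins, IL2RG stood at 8.32, 10.97 and 18.4 CPM in females, against 9.09, 14.7 and 43.3 CPM in castrated males, a log2 difference of -0.63 (SE 0.24), and IL7R, which with IL2RG binds IL-7, was at -0.58 and IL10RA at -0.59. IL2RG was at -0.40 and IL10RA at -0.37 without castrated male 1. IL13RA1, far more abundant, showed a smaller and tighter difference: 187.4 ± 24.8 CPM in females, against 223.4 ± 38.8 CPM in castrated males, -0.25 (SE 0.10), and -0.22 without both libraries numbered 10. Each of these had an edgeR adjusted p of 1.

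Among ligands, CXCL11 stood at 0.269, 0.579 and 2.26 CPM in females, against 0.321, 1.12 and 3.82 CPM in castrated males, a log2 difference of -1.12 (SE 0.44). CCL3L1 stood at 0.402, 1.71 and 3.02 CPM in females, against 1.07, 2.21 and 8.92 CPM in castrated males. TNFSF14, a ligand of the lymphotoxin beta receptor, stood at 0.460, 0.833 and 1.60 CPM in females, against 0.672, 1.14 and 6.87 CPM in castrated males, a log2 difference of -0.98 (SE 0.38), and of -0.47 without castrated male 8. The medians were again lower in females, and the upper ends belonged to a few castrated males. The abundant ligands CCL2 (-0.09), CXCL2 (-0.19) and CCL19 XLOC_003652 (-0.17) were near the middle of the set. Without both libraries numbered 10 they were at +0.08, -0.22 and -0.15, so CCL2 did not keep its direction. The 5 loci above 0 with the smallest p were TNFAIP1 (+0.20), IL17D XLOC_004954 (+0.07), IL2RA (+0.14), IL17RA XLOC_025029 (+0.07) and CCL19 XLOC_003968 (+0.11), each with an edgeR adjusted p of 1. IL2RA lay at -0.13 and -0.10 by limma-trend on FPKM with pseudocounts of 0.1 and 1, and so did not keep its direction.

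**Figure D4:**
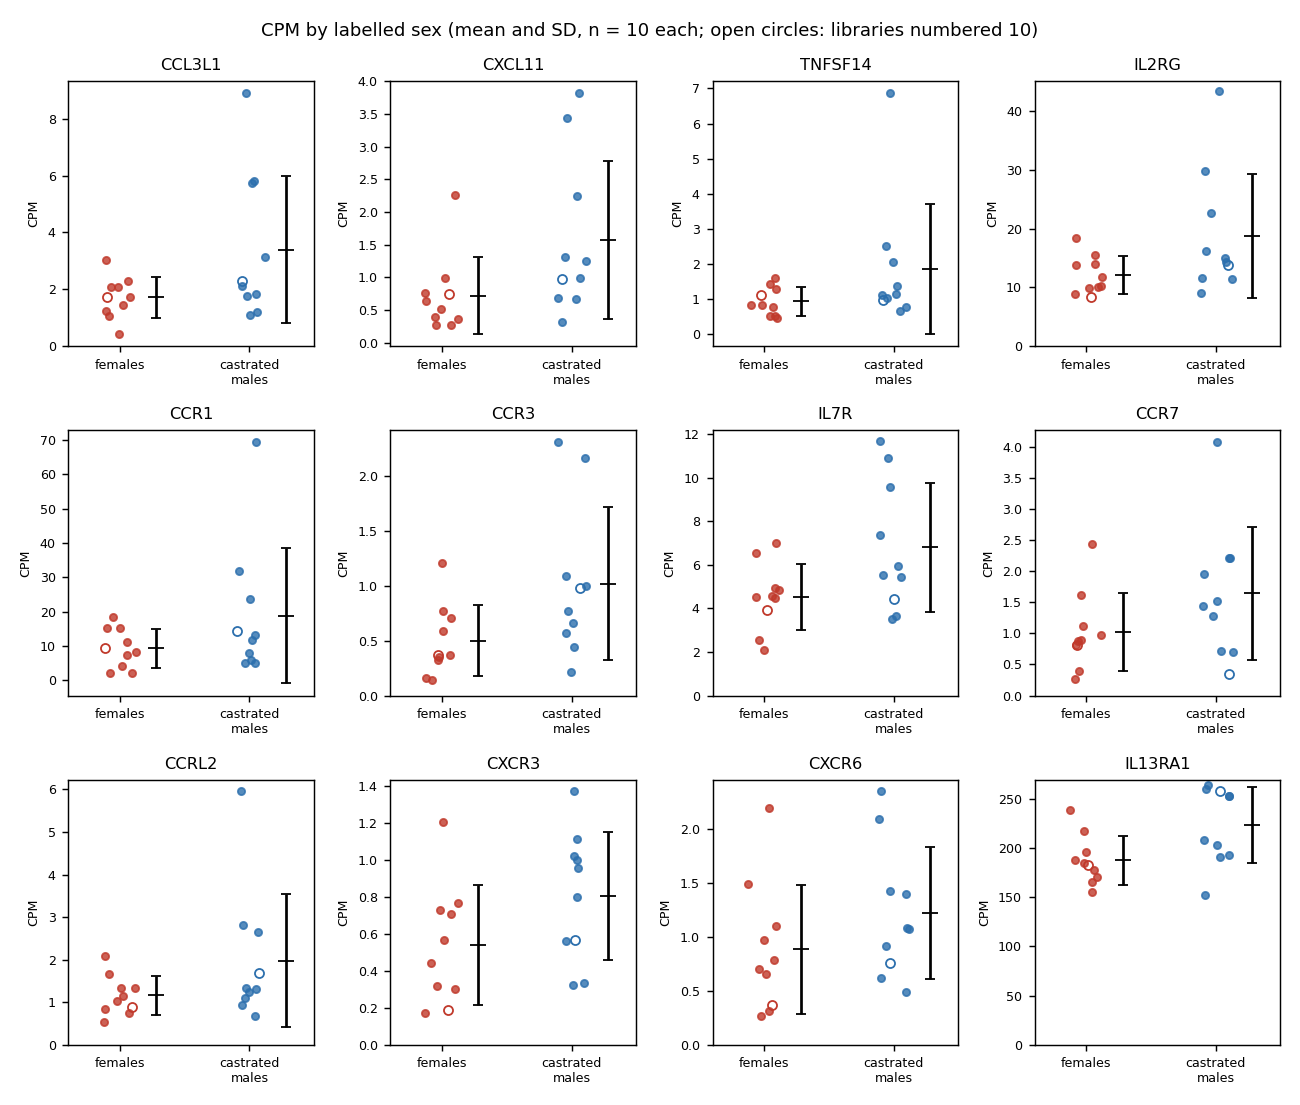
CPM of 12 loci in females (left, red) and castrated males (right, blue), each point a library, with the mean and SD beside them (n = 10 each); open circles are the libraries labelled female 10 and castrated male 10. The points overlap in every panel, the means are lower in females, and castrated male 1 is the top point for CCL3L1, IL2RG, CCR1, CCR7, CCRL2 and IL13RA1.

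Markers of immune cells mostly differed in the same direction. All 8 macrophage marker loci lay below 0 in the same comparison, with a median of -0.64, as did 11 of 12 T and NK marker loci, with a median of -0.55, with 5 of each at an unadjusted p under 0.05 and none past an adjusted p of 0.05 in edgeR. Without castrated male 1 the macrophage marker loci were still 8 of 8 below 0, with a median of -0.39, but 0 had an unadjusted p under 0.05 in edgeR. The T and NK marker loci were then 10 of 12 below 0, with a median of -0.40 and 3 at that p. With age in the model 8 of 8 and 11 of 12 were below 0, with medians of -0.47 and -0.50, and 0 of each reached that p. The part of these cells in the differences was not tested. The counts of family loci moved with single animals. Without castrated male 1 there were 4 family loci with an unadjusted p under 0.05 (6.25%, against 3.59% of all loci) and 48 of 64 below 0, against 47.4% of all loci. Without both libraries numbered 10 there were 6 (9.38%, against 4.86%) and 44 of 64 (68.8%, against 47.9%). With age in the model there were 4 (6.25%, against 3.63%) and 46 of 64 (71.9%, against 50.3%). Without female 2 there were 13 (20.3%, against 5.22%) and 53 of 64 (82.8%, against 49.8%). The 7 chemokine receptors stayed below 0 without castrated male 1, without both libraries numbered 10 and with age in the model, with medians of -0.43, -0.74 and -0.42.

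Age at slaughter spanned 233 to 250 days, and slopes were estimated per 10 days with sex in the model. No family locus passed an adjusted p of 0.05 in edgeR, 0 of 64 against 0 of 21587 loci (0.0%), and DESeq2 and limma-trend on FPKM also called 0 of the set. At an unadjusted p under 0.05 there were 5 (7.81%, against 5.51% of all loci), 4 below 0 (6.25%, against 3.73%) and 1 above (1.56%, against 1.78%). At any p 55 of 64 slopes were below 0 (85.9%, against 49.8%), with a median of -0.20 per 10 days against 0.00 over all loci. All 7 chemokine receptors, 4 CXC ligands, 4 TNF ligands and 3 tested loci sharing only the prefix were among the 55, with medians of -0.46, -0.38, -0.04 and -0.21, and without castrated male 1 it was 6 of the 7 receptors. Without castrated male 1 there were 6 loci with an unadjusted p under 0.05 (9.38%, against 4.71%) and 50 of 64 slopes below 0 (78.1%, against 48.1%). Without both libraries numbered 10 there were 6 (9.38%, against 5.24%) and 52 of 64 (81.2%, against 48.7%), and without female 2 there were 3 (4.69%, against 3.38%) and 51 of 64 (79.7%, against 49.8%).

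CCL2 had the slope of smallest p. By labelled age, the 6 animals of 247 days or more held 18.2 to 49.4 CPM of CCL2 and the 14 younger animals 39.3 to 193.6 CPM. The 2 ranges overlapped between 39.3 and 49.4 CPM, and the cut at 247 days was not set in advance. The 6 include the library labelled female 10 (250 days, 48.2 CPM), while the library labelled castrated male 10 (241 days) held 134.7 CPM. Both go against their sex labels, so their ages are uncertain too. If the 2 were exchanged, 134.7 CPM would belong to an animal of 250 days. The slope of CCL2 was -1.25 on the log2 scale per 10 days (SE 0.31, unadjusted p = 0.000613, edgeR adjusted p = 0.823), and it stayed between -1.42 and -1.10 with any 1 library left out. CCR7 had a slope of -1.11 (SE 0.32, edgeR adjusted p = 0.848), between -1.21 and -0.97 with any 1 library left out. CCR7 was highest in castrated male 1, aged 237 days, at 4.08 CPM, and lowest in female 7, aged 249 days, at 0.259 CPM. TNFRSF11A XLOC_000495, a locus of the receptor RANK, was the 1 above 0, at +0.26 (SE 0.13, edgeR adjusted p = 0.867). Its slope was +0.148 without the youngest animal of each sex (edgeR unadjusted p = 0.288). The other TNFRSF11A locus, XLOC_001503, held 53790 counts over all libraries, against 6310 at XLOC_000495. The slope of XLOC_001503 was -0.001 (edgeR unadjusted p = 0.992), so a rise of the gene with age was not shown.

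IL6 (slope -2.08, SE 0.74, edgeR adjusted p = 0.859) and IL20 (-1.78, SE 0.48, edgeR adjusted p = 0.848) had slopes that moved most when the youngest animals were left out. Female 2, aged 235 days, held 13.5 CPM of IL6 and 3.66 CPM of IL20, and castrated male 2, aged 233 days, held 5.51 CPM of IL6 and 2.04 CPM of IL20. The same animals held 492.3 and 471.6 CPM of CXCL2, against 288.7 CPM or less in the other 18. Both stood among the top 4 libraries for 8 of 64 family loci (12.5%, against 4.59% of all loci): CCL2, CXCL2, CXCL8, IL6, IL20, CCR7, TNFAIP3 and IL17RA XLOC_025029. Without female 2 the slope was -0.54 for IL6 (unadjusted p = 0.502), -0.99 for IL20, -1.10 for CCL2, -0.98 for CCR7 and 0.01 for CXCL2, whose slope with all libraries was -0.42. Without both animals it was +0.43 for IL6, -0.40 for IL20, +0.59 for CXCL2, -1.10 for CCL2 (unadjusted p = 0.0201, edgeR adjusted p = 0.983) and -1.04 for CCR7. That setting was chosen after the values were seen, and it left 7 loci with an unadjusted p under 0.05 (10.9%, against 4.59% of all loci) and 47 of 64 slopes below 0 (73.4%, against 49.9%).

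**Figure D5:**
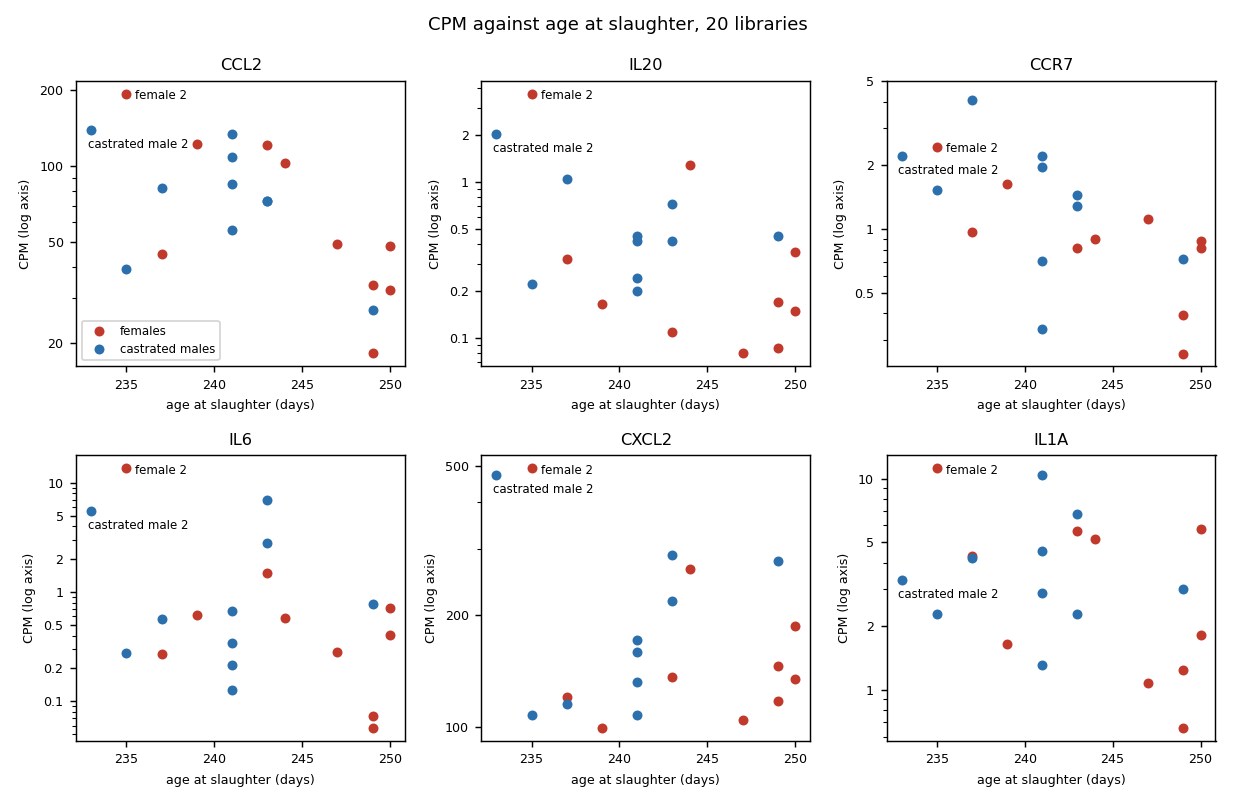
CPM (log axis) of 6 loci against age at slaughter in days, for females (red) and castrated males (blue), each point a library. CCL2 spans 18.2 to 49.4 CPM in the 6 animals oldest by label and up to 193.6 CPM in the others, the CCR7 values of older and younger animals overlap, IL6, IL20 and CXCL2 are highest or among the highest in female 2 and castrated male 2, the youngest of each sex, and IL1A is highest in female 2.

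All 8 macrophage marker loci also had slopes below 0 (median -0.53) and 9 of 9 fat cell marker loci slopes above 0 (median +0.16), none past an adjusted p of 0.05 in edgeR, and their part in the slopes of the cytokine genes was not tested. A difference of slopes between the sexes was found for 0 of 64 family loci and 0 of 21587 loci (0.0%) at an adjusted p of 0.05 in edgeR, the 1 tool run on it. At an unadjusted p under 0.05 there was 1 family locus (1.56%, against 5.42% of all loci, 2.45% below 0 and 2.97% above), TNFSF18, with a difference of slopes of -1.98 (females minus castrated males, edgeR adjusted p = 0.895).

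Other genes of the pathways were read from lists of textbook members. Of 38 relatives without the prefix 17 had a locus, 18 loci in all, of which 14 lay below 0 in the comparison of the sexes, against 49.1% of all loci, and 3 had an unadjusted p under 0.05, against 4.33%, with a median of -0.15. These were 14 and 0 without castrated male 1. CSF3R, the receptor of granulocyte colony-stimulating factor, stood at 3.35 ± 2.20 CPM in females, against 9.20 ± 11.1 CPM in castrated males, a log2 difference of -1.46 (SE 0.57, edgeR adjusted p = 1). Its highest value, 34.45 CPM, came from castrated male 1 and weighs on that mean. CX3CR1, the fractalkine receptor of monocytes, was at -0.86 and CD40LG, the T cell ligand of CD40, at -0.58. Of 46 signalling genes 35 had a locus, 39 loci in all, of which 27 were below 0 with a median of -0.03. The balance turned once age was added, where 14 were below 0 and 25 above (median 0.02), or without castrated male 1, where 18 were below 0 and 21 above (median 0.01). The 1 with an unadjusted p under 0.05 was JAK3, the kinase bound to IL2RG, at -0.58 (edgeR adjusted p = 1), and without castrated male 1 there was none. With age, 11 of the 18 loci of relatives had slopes below 0, with a median of -0.10, and 33 of the 39 signalling loci had slopes below 0, against 49.8% of all loci, with a median of -0.13, and the lowest p were those of IRAK2, a kinase of IL-1 receptor signalling, at -0.46, JAK2 at -0.34 and TYK2 at -0.18, while CSF2RB, the common beta chain of the receptors for IL-3, IL-5 and GM-CSF, led the relatives at -0.85 (edgeR adjusted p = 0.859). No gene of either list passed an adjusted p of 0.05 in edgeR for sex or age.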

How the data were processed

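The authors deposited a table of raw read counts and a table of FPKM per Cufflinks locus. Upstream tools, per the submitters' processing notes, were Cufflinks 2.1.1, TopHat2 2.0.8, DESeq2 and Bowtie2 2.1.0.0, with the build Sscrofa10.2. The sources used here do not give the annotation release, strand setting, counting tool or treatment of multiply matching reads. Isoform FPKM were not used. Symbols came from a table of pig Ensembl identifiers, and neighbours from RefSeq's Sscrofa11.1.

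Counts were fitted with edgeR 4.0.16 (R 4.3.3; quasi-likelihood, TMM, filterByExpr, Benjamini-Hochberg at 0.05 over 21587 loci), and the steps were tested on simulated data. CPM are TMM-scaled; log2 CPM used a prior count of 2. Alternatives were DESeq2 1.42.0, limma 3.58.1 on log2(FPKM + 0.1) or log2(FPKM + 1), RLE size factors, no filter, and libraries left out. Correlations used loci of at least 1 CPM, with log2 CPM less sex means and 100000 permutations; a marker was left out of its own score's relations.

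Libraries are numbered in order of deposit, so numbers pair no animals. The genes, lists and tests were chosen with earlier results of these data known. Genes were named by rule from the 4 of highest mean FPKM per role, the 5 of smallest p per direction and the 6 most variable. The rule also took the 5 highest and lowest correlations per score, pairs past the threshold, loci failing the filter, and the 4 related genes of smallest p. Not every value that the rule covers is printed, and others were named after their values were seen. The values of 1 gene are not reported here, and counts over the set include it.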

Additional observations from a re-analysis of the deposited data

Results flagged for a closer look

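Of 96 groups of 10 libraries examined, those of 48 named loci in each sex on log2 CPM, 2 held a library far from the rest by Dixon's test, against about 1 in 20 groups by chance. IL1RAP, the accessory chain of the IL-1 receptor, stood at 51.68 CPM in castrated male 1, and the nearest castrated male was at 83.44 CPM. IL22RA2, the soluble binder of IL-22, stood at 0.1469 CPM in female 8, and the nearest female was at 0.4841 CPM; the low value rested on 6 counts.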

How the results depend on the processing

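For sex, the number of all loci called was 0 in edgeR, 6 in DESeq2, 12 and 10 by limma-trend with pseudocounts of 0.1 and 1, 18 without both libraries numbered 10, and 0 to 13 with 1 library left out. For age it was 0 in edgeR, 5 in DESeq2, 1 and 1 by limma-trend, and 0 to 1 with 1 library left out. The number of family loci called stayed at 0 under every alternative run for sex, age and their interaction. Without castrated male 1, 3 ligand and receptor pairs, 8 loci for the macrophage score and 2 for the T and NK score passed; with sex means not removed 11 passed for the T and NK score. Directions reversed for IL2RA, whose r in FPKM was 0.147 with the T and NK score and 0.068 with the macrophage score, and whose sex difference was -0.132 and -0.098 by limma-trend and -0.018 (without female 7) to 0.258 with 1 library left out; for the sex difference of IL17RA XLOC_025029, -0.002 (without female 6) to 0.115; and for the slope of IL6, 0.432 without the youngest animal of each sex. The cause was not tested. Leaving out both libraries numbered 10 in the correlations, and the youngest animal of each sex, were chosen after seeing the data. Depth limits IL6, CCR3, IL20, IL21R, CXCR3 and IL4R XLOC_020210, each with 5 counts or fewer in its lowest library. No paired analysis was possible because the library numbers follow the order of deposit.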
